A study of Mus musculus with 7 samples.

Results

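The genes of the EGF receptor family and of the HGF-Met pair were examined in livers that had lost Rbpj, the DNA-binding partner of activated Notch receptors. The group consists of 10 genes, chosen by the gene name of their array probes: the receptors Egfr, Erbb2, Erbb3 and Erbb4, the ligands Egf, Tgfa, Areg and Hbegf, and the ligand Hgf with its receptor Met. They are represented by 12 probes among 35715 names on the array. RNA of whole liver was measured in untreated C57BL/6J mice at the age of 4 weeks, with 1 array of 1 dye per animal and no pooling. All animals carried floxed Rbpj alleles, and the 3 Rbpj-/- mice (Rbpj-/-_N3, Rbpj-/-_N5 and Rbpj-/-_2866) also carried AlfpCre, which acts in the fetal progenitors of hepatocytes and bile duct cells, whereas the 4 Rbpj+/+ mice (_1155, _1156, _1024 and _991) did not. The Rbpj-/- animals were cholestatic at this age. The exons removed are not given in the sources used here, and liver cells of other lineages carry the floxed gene without AlfpCre activity.

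ErbB receptors are cell surface tyrosine kinases that pair after binding a ligand of the EGF family and signal through Ras and ERK. EGFR is the abundant ErbB receptor of adult hepatocytes, and its ligands are made as membrane-bound precursors that must be cut free. HGF is secreted by non-parenchymal cells such as stellate cells as an inactive chain, is activated by proteolysis, and acts on hepatocytes through MET. Both receptors are known for driving hepatocyte division after liver injury.

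Egfr was the only member with more than 1 probe, and the stretches of Egfr and Met that were measured are shown because the results turn on them. The design assigns an upstream probe (chr11:16783556-16783615, mm9, plus strand) and a second probe (chr11:16787172-16787231, plus strand) to the same short Egfr transcript. They begin 89 bases apart in that transcript but 3616 bases apart in the genome. The second probe closes with a stop triplet in its first reading frame, in capitals, and is called the short-transcript probe here. The Met probe lies at chr6:17503299-17503358 on the plus strand.
Egfr upstream probe: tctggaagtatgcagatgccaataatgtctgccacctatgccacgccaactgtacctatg
Egfr short-transcript probe: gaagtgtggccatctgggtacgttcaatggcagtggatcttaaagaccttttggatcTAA
Met probe: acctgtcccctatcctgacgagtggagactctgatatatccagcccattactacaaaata
A further Egfr probe (chr11:16813815-16813874, plus strand) is assigned to the long transcript. It begins 26643 bases beyond the short-transcript probe in the genome and is called the far 3′ probe.

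Values are log2 intensities with the 75th percentile of the array subtracted, so that 0 is the brightness below which 75% of gene probes lay. They allow a probe to be compared between animals but not with another probe. The arrays had 41.1% to 64.9% of probes well above background, and the median intensity was 19.7 on Rbpj+/+_1156 and 31.2 on Rbpj-/-_N3, against 5.40 to 8.80 on the other arrays. All arrays lay on 1 slide with the genotypes in different rows, so that row and genotype cannot be told apart. The brighter Rbpj probe fell by 1.13 (log2, SE 0.24, limma adjusted p = 0.0115) and ranged from 0.29 to 0.97 in Rbpj+/+ and from -0.78 to -0.35 in Rbpj-/- liver, although it may lie outside the deleted part. The Y-linked genes Ddx3y and Eif2s3y were well above background on all 7 arrays.

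Among the members well above background in every animal, the receptors Egfr and Met fell, the ligands Hgf and Hbegf rose, and Erbb2 did not pass the test. Of the 10 genes, 7 were tested, 2 were lower and 3 higher in Rbpj-/- liver, but Tgfa, the third higher gene, was well above background in every animal of the Rbpj-/- genotype only and turned to -0.09 after normexp background correction, another way to remove background. Erbb3 did not pass, and Erbb4, Egf and Areg were not well above background on every array of either genotype and were not tested. The call used limma with Benjamini-Hochberg adjustment over all probes and an adjusted p below 0.1. By the same rule 34.2% of the 18770 tested genes were called, 14.6% higher and 19.6% lower, so that calls were common on these arrays. The balance depended on the scaling: 2741 genes were higher and 3671 lower as reported, 3115 and 2852 after quantile normalization, 3396 and 3244 with the percentile taken over detected probes, and 3099 and 2807 in the series matrix, with a median over all genes of -0.04, -0.05 and -0.04 in these alternatives. The median log2 difference was 0.13 over the 7 members and -0.13 over all tested genes. Values of the genotypes did not overlap for 4 of the 7 members, against 36.5% of all tested genes. Tgfa is among these 4 and, like Erbb3, entered the test through Rbpj-/- liver only. This count and the median of the members therefore lend no support to a difference between the members and all genes. The count of 2 lower members held in each of the 19 other settings, whereas the count of 3 higher members became 0 without Rbpj-/-_N3, 1 without Rbpj-/-_N5, 1 after normexp correction and 0 without the filter on dim probes.

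**Figure D1:**
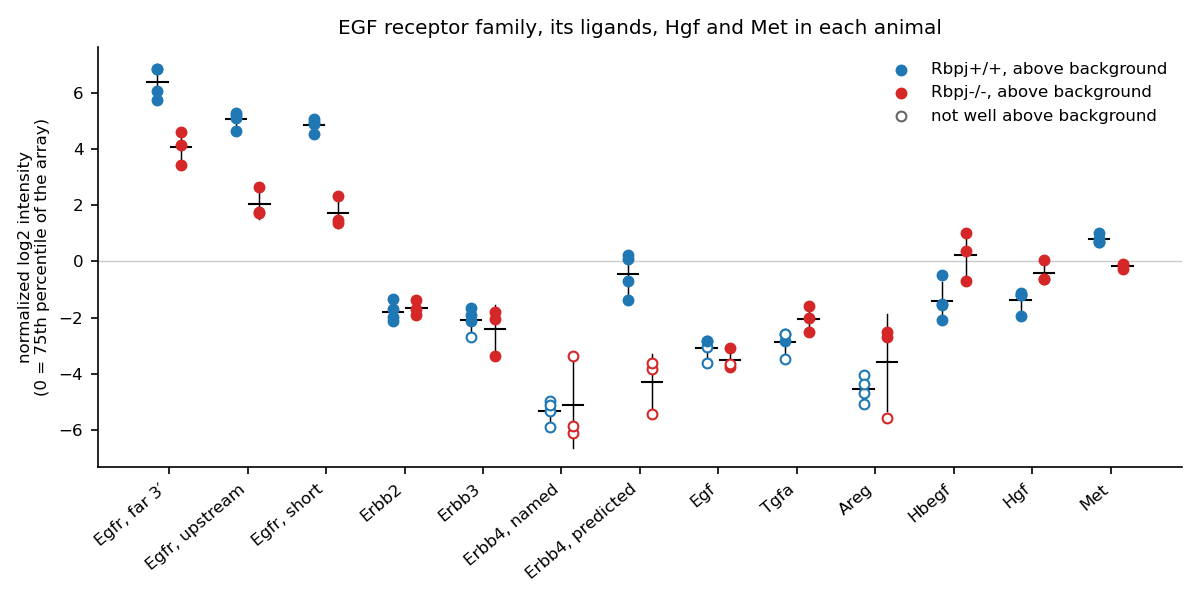
Normalized log2 intensity (vertical axis) of each probe in each animal, with blue points for the 4 Rbpj+/+ and red points for the 3 Rbpj-/- animals. Open points were not well above background, and black bars give the group mean and SD. The red points of the 3 Egfr probes and of Met lie below every blue point, those of Hgf and Tgfa lie above, and those of Erbb2 and Erbb3 overlap. The probe named "Erbb4, predicted" is annotated to predicted transcripts and is not one of the 12.

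Egfr, the receptor for EGF, TGFA, AREG and HBEGF, had the largest fall of the tested members. With the far 3′ probe it measured 6.86, 5.73, 6.07 and 6.86 in Rbpj+/+_1155, _1156, _1024 and _991 and 4.59, 4.14 and 3.44 in Rbpj-/-_N3, _N5 and _2866. The lowest Rbpj+/+ animal lay above the highest Rbpj-/- animal. The difference of the means, 6.38 ± 0.57 (SD, n = 4) and 4.06 ± 0.58 (n = 3), was -2.32 (SE 0.37, 95% confidence interval -3.16 to -1.49, limma adjusted p = 0.0040), which is 5.01-fold lower. The exact two-sided permutation test gave p = 0.0286, the smallest that 35 splits of 7 animals allow. This probe was printed in 10 spots per array, and the SD between them was 0.03 to 0.09, below the spread between animals. The fall kept its call in all 19 other settings, between -2.83 and -2.01.

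The 2 probes that the design assigns to the short transcript fell as well. Whether the upstream probe also measures the long transcript was not examined. The upstream probe measured 5.30, 4.65, 5.20 and 5.11 in Rbpj+/+ and 2.65, 1.76 and 1.72 in Rbpj-/- liver. The short-transcript probe measured 5.05, 4.52, 4.89 and 4.95 against 2.34, 1.35 and 1.48. In both, the genotypes lay far apart and Rbpj-/-_N3 was the highest of its group. The differences were -3.02 (SE 0.28, limma adjusted p = 0.0005) and -3.13 (SE 0.27, limma adjusted p = 0.0004).

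Whether the short-transcript probe fell more than the far 3′ probe was read from their ratio within each array. Its log2 value was -1.81, -1.21, -1.18 and -1.91 in Rbpj+/+ and -2.26, -2.79 and -1.96 in Rbpj-/- animals. Every Rbpj-/- animal was lower, but the nearest values of the genotypes, -1.91 and -1.96, were almost equal. The difference was -0.81 (exact two-sided permutation p = 0.0571), and it ranged from -0.99 to -0.58 when 1 animal was left out. The upstream probe against the far 3′ probe gave -0.70 (exact permutation p = 0.0857) with overlapping groups, and the short-transcript probe against the upstream probe gave -0.11 (exact permutation p = 0.143). Unequal change of the Egfr transcripts was therefore not established at this number of arrays. The ratio was an addition made after the data were seen.

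**Figure D2:**
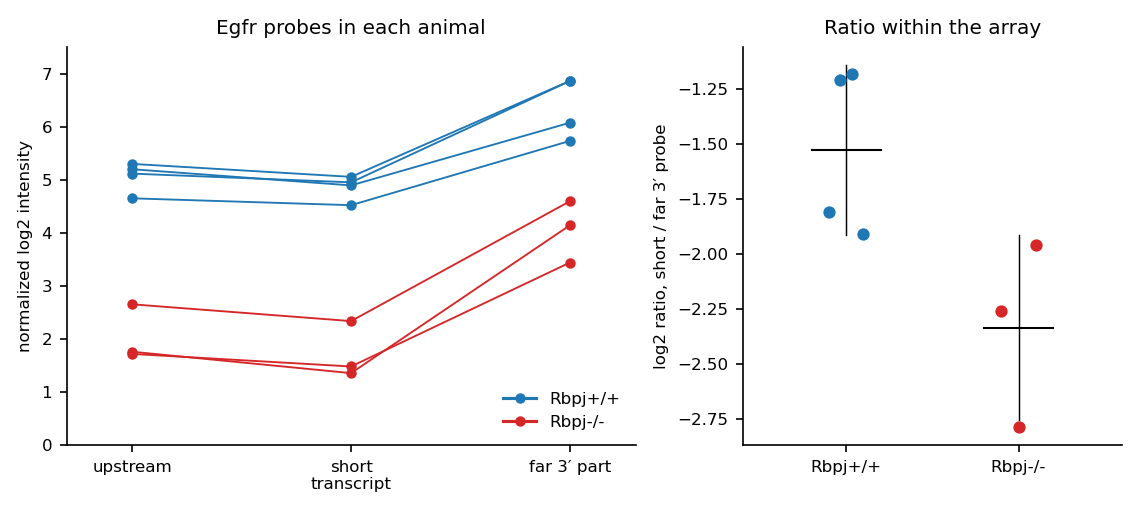
Left, normalized log2 intensity of the 3 Egfr probes with 1 line per animal, and right, the log2 ratio of the short-transcript to the far 3′ probe in each array with mean and SD. The Rbpj-/- lines (red) lie below all Rbpj+/+ lines (blue) at each probe, and the ratios lie between -1.91 and -1.18 in Rbpj+/+ and between -2.79 and -1.96 in Rbpj-/- animals.

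Met, the receptor of HGF, measured 0.70, 0.68, 1.01 and 0.80 in Rbpj+/+ and -0.28, -0.14 and -0.08 in Rbpj-/- liver. The spread within each genotype was small and the groups stood apart. The means were 0.80 ± 0.15 (SD, n = 4) and -0.17 ± 0.10 (n = 3), and the difference was -0.97 (SE 0.18, limma adjusted p = 0.0075, exact permutation p = 0.0286). The call remained in all 19 other settings, with the smallest fall, -0.60, after normexp background correction.

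Hepatocyte markers moved with these receptors. Of 8 markers (Alb, Ttr, Apoa1, Apob, Tf, Hnf4a, Asgr1 and Cps1), 6 were lower, none was higher, and the median difference was -0.72. This depended on the scaling, since 2 were lower and 1 higher after quantile normalization (median -0.22) and in the series matrix (median -0.21). Without Rbpj-/-_N3 or Rbpj+/+_1024, 3 were lower, and 4 were lower without Rbpj-/-_N5. Their summed level, on a linear scale relative to the 75th percentile of the array, was 2915 to 3962 in Rbpj+/+ and 1921 to 2234 in Rbpj-/- liver, and each marker was detected in both genotypes. After the mean log2 level of these markers was subtracted in each animal, Egfr still differed by -1.82 at the far 3′ probe, -2.52 at the upstream probe and -2.63 at the short-transcript probe, and Met by -0.47. Without Cps1, which gave 0.94 while the other 7 markers were below 0, these remainders were -1.61, -2.31, -2.42 and, for Met, -0.26. In bulk tissue, fewer cells of a type and less RNA per cell cannot be told apart.

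The other ErbB receptors did not pass the test. Erbb2, which has no known ligand and acts as a partner, measured -2.12, -1.35, -1.71 and -1.99 in Rbpj+/+ and -1.38, -1.68 and -1.91 in Rbpj-/- liver. The groups overlapped, and the difference was 0.13 with a 95% confidence interval of -0.42 to 0.68 (limma adjusted p = 0.717). Erbb3, which binds neuregulins and has a weak kinase, measured -2.13, -1.91, -2.68 and -1.64 against -1.80, -3.36 and -2.05. Its groups overlapped too, and the difference was -0.31 with an interval of -1.21 to 0.58 (limma adjusted p = 0.589). The Erbb2 interval leaves out a fall as large as that of Egfr, although its probe is dim. Erbb3 was well above background on 3 of 4 Rbpj+/+ and 3 of 3 Rbpj-/- arrays and entered the test through Rbpj-/- liver only. A fall to background would have kept Erbb3 out of the test, so its interval cannot decide about a fall of that size. The direction was not stable in either gene: Erbb2 gave -0.01 without Rbpj-/-_N3 and -0.15 after normexp correction, and Erbb3 gave 0.16 without Rbpj-/-_N5.

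Erbb4, also a neuregulin receptor, was not well above background on any array with the probe that carries its name (chr1:68086686-68086745, minus strand). A second probe on chromosome 1 carries the name of an Ensembl transcript and is also annotated to predicted Erbb4 transcripts. It was found by accession after the data were seen and behaved differently. It measured -1.37, -0.71, 0.09 and 0.22 in Rbpj+/+ and -5.42, -3.84 and -3.62 in Rbpj-/- liver. It was detected well above background in 4 of 4 Rbpj+/+ animals and 0 of 3 Rbpj-/- animals and was thus at least 8.87-fold lower (limma adjusted p = 0.0020). The probe thus passed the filter through Rbpj+/+ liver only, so its call lends no support to a fall. After normexp correction its fitted difference was -1.31, smaller than this bound (limma adjusted p = 0.0018). The bound sets the Rbpj+/+ mean against, on each Rbpj-/- array, the higher of the dimmest detected signal and the probe itself. The 2 Erbb4 probes disagree, and the predicted transcript was not measured in any other way.

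Hgf rose. It measured -1.94, -1.14, -1.19 and -1.21 in Rbpj+/+ and 0.05, -0.61 and -0.63 in Rbpj-/- liver. All Rbpj-/- animals were higher than any Rbpj+/+ animal, with Rbpj+/+_1155 at the low and Rbpj-/-_N3 at the high end. The difference was 0.98 (SE 0.27, limma adjusted p = 0.0340, exact permutation p = 0.0286). The call was lost without Rbpj-/-_N3 (0.75, limma adjusted p = 0.115), after normexp correction (0.34, limma adjusted p = 0.135) and without the filter on dim probes (limma adjusted p = 0.198).

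Markers of cell types known to make HGF were read beside it. Of 6 stellate cell markers (Lrat, Des, Rgs5, Reln, Pdgfrb and Ngfr), 3 were higher and none lower, with a median difference of 0.56 and a summed level of 6.79 to 9.80 in Rbpj+/+ and 8.88 to 14.5 in Rbpj-/- liver, which overlap. Reln gave 0.01 and Ngfr -0.68, and the calls of Lrat and Rgs5 were lost in 12 and 10 other settings. Of 6 markers of matrix-producing fibroblasts, 5 were higher, with a median of 1.40 and sums of 48.0 to 71.5 and 106.5 to 186. Relative to the mean of the stellate markers Hgf differed by 0.55, and relative to that of the fibroblast markers by -0.81. Relative to the mean of the macrophage markers, which are given with Hbegf, it differed by -0.55. The part of these cells in the Hgf difference was not tested.

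Hbegf, a ligand of EGFR and ERBB4, measured -2.09, -0.48, -1.55 and -1.50 in Rbpj+/+ and 1.02, 0.37 and -0.71 in Rbpj-/- liver. Rbpj-/-_2866 lay below Rbpj+/+_1156, so that the groups overlapped by 1 pair of animals. The difference was 1.63 (SE 0.46, limma adjusted p = 0.0357, exact permutation p = 0.0857). It was 1.23 without Rbpj-/-_N3 (limma adjusted p = 0.119) and 1.56 without Rbpj-/-_N5 (limma adjusted p = 0.114), and neither passed. Macrophages, which make HBEGF among other cells, had 6 of 7 markers higher (Adgre1, Clec4f, Vsig4, Cd5l, Cd68, Csf1r and Marco were measured), with a median of 1.53 and sums of 113 to 146 in Rbpj+/+ and 384 to 489 in Rbpj-/- liver. Relative to the mean of these markers Hbegf differed by 0.11, and their part in its difference was not tested.

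Tgfa, an EGFR ligand made by hepatocytes and other cells, measured -2.59, -2.84, -3.46 and -2.59 in Rbpj+/+ and -1.58, -2.03 and -2.52 in Rbpj-/- liver. The groups did not overlap, but Rbpj-/-_2866 stood within 0.1 of the nearest Rbpj+/+ animals. The difference was 0.83 (SE 0.30, limma adjusted p = 0.0749, exact permutation p = 0.0286). The signal was well above background on 2 of 4 Rbpj+/+ and 3 of 3 Rbpj-/- arrays, so that it entered the test through the genotype where it is high and its call lends no support to a rise. Its 10 spots varied within an array by an SD of 0.18 to 0.69. The call was lost in 10 other settings and the direction turned after normexp correction (-0.09), so it is the least stable call among the members.

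The remaining ligands were too dim to test. Egf was well above background on 2 of 4 Rbpj+/+ and 2 of 3 Rbpj-/- arrays, with -3.61, -2.84, -3.05 and -2.83 against -3.08, -3.75 and -3.67. These ranges overlapped. Areg, an amphiregulin precursor that is often induced in injured epithelia, was well above background on 0 of 4 Rbpj+/+ and 2 of 3 Rbpj-/- arrays. It measured -4.70, -4.06, -4.35 and -5.08 against -2.68, -2.53 and -5.59, so that Rbpj-/-_N3 and Rbpj-/-_N5 were above all Rbpj+/+ animals and Rbpj-/-_2866 was the lowest of all. With all animals the difference was 0.95 (limma adjusted p = 0.608, in the fit without the filter on dim probes).

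**Figure D3:**
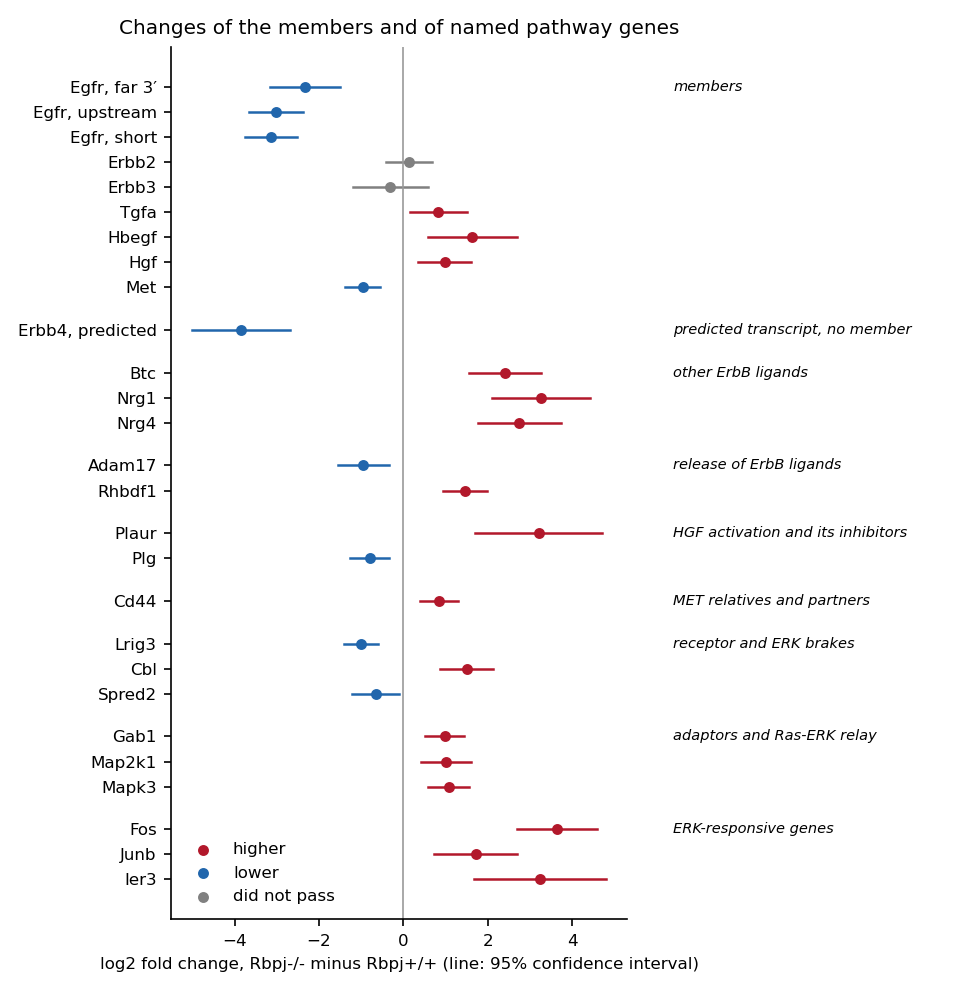
Log2 fold change of Rbpj-/- against Rbpj+/+ liver (horizontal axis) with 95% confidence intervals of the limma fit for the tested member probes, the probe of predicted Erbb4 transcripts and the named genes of each role, n = 4 and 3 animals. Red genes were higher, blue lower, and grey did not pass. Egfr and Met lie to the left of 0 and Hgf, Hbegf, Tgfa and the ligands Btc, Nrg1 and Nrg4 to the right, with Tgfa at -0.09 after normexp correction. The fitted values of Btc, Fos and predicted Erbb4 depend on signals near background, for which the text gives bounds. These bounds were not reached after normexp correction.

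Genes that act with the members were read in 7 lists by role, 73 genes in all. Of 62 tested, 19 were higher (30.6%, against 14.6% of all tested genes) and 10 lower (16.1%, against 19.6%), 33 did not pass and 11 were not tested. The median log2 difference was 0.32. The lists were chosen with earlier results of these data known, so these shares lend no support to an excess. Btc, Cbl, Fos and Plaur are among the higher genes and entered the test through Rbpj-/- liver only. Among genes well above background on all 7 arrays, 13 were higher and 10 lower. The share of all genes called under that filter is not given beside these counts, so they show no excess over it. Without Rbpj+/+_1156 and Rbpj-/-_N3, the arrays with brighter dim probes, 12 were higher and 5 lower. The lower count was the less stable, at 1 without Rbpj-/-_N5 and 3 without Rbpj-/-_N3 or Rbpj+/+_1024, and 6 and 4 without Rbpj+/+_1155 and Rbpj+/+_991.

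Of the 7 other ErbB ligands, Nrg1 and Nrg4 were measured in every animal and were higher, and Btc entered the test through Rbpj-/- liver only. Nrg1, a neuregulin that binds ERBB3 and ERBB4, was between -1.94 and -1.08 in Rbpj+/+ and at 1.79, 2.90 and 0.36 in Rbpj-/- liver, a difference of 3.26 (SE 0.51, limma adjusted p = 0.0040). Nrg4, a ligand of ERBB4, ranged from -0.50 to 0.47 against 3.56, 3.11 and 1.70, a difference of 2.75 (SE 0.44, limma adjusted p = 0.0042). In both genes Rbpj-/-_2866 was the lowest of its group and still above every Rbpj+/+ animal. Btc, betacellulin, binds EGFR and ERBB4. It was well above background in none of the Rbpj+/+ and all of the Rbpj-/- animals (-4.33 and -1.92 on average). As processed here it was at least 2.69-fold higher (limma adjusted p = 0.0038). Its fitted difference shrank to 0.17 after normexp correction, smaller than this bound (limma adjusted p = 0.344). The Btc call lends no support to a rise. Epgn, Ereg, Nrg2 and Nrg3 were not tested.

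Of 6 genes for the release of ErbB ligands, 1 was higher, 1 lower and 4 did not pass. Rhbdf1, an inactive rhomboid protein that guides ADAM17 to the cell surface, was higher by 1.46 (SE 0.24, limma adjusted p = 0.0043), with 0.83 to 1.21 in Rbpj+/+ and 2.02 to 2.82 in Rbpj-/- liver. Adam17, the protease that cuts several of these ligands free, was lower by a difference of -0.95 (SE 0.27, limma adjusted p = 0.0347), which did not pass without Rbpj-/-_N5 (-0.85, limma adjusted p = 0.125).

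Of 10 genes for HGF activation and its inhibition, 9 were tested, 2 were higher, 4 lower and 3 did not pass. The lower genes were proteases and zymogens made mainly by hepatocytes: Plg (plasminogen, -0.80, limma adjusted p = 0.0243), Hgfac (HGF activator, -0.75, limma adjusted p = 0.0543), Hpn (hepsin, -0.59, limma adjusted p = 0.0573) and Klkb1 (plasma prekallikrein, -0.71, limma adjusted p = 0.0626). These differences were near the median of the hepatocyte markers, -0.72. After quantile normalization that median was -0.22, with Hgfac at -0.54 and Hpn at -0.28. The part of hepatocytes in these differences was not tested. Plaur, the urokinase receptor, was higher by 3.21 (SE 0.66, limma adjusted p = 0.0113). It was well above background in 2 of 4 Rbpj+/+ and 3 of 3 Rbpj-/- animals, so its call lends no support to a rise. Its difference was 0.96 after normexp correction. Plg did not pass without Rbpj-/-_N5 (-0.71, limma adjusted p = 0.101), in the series matrix (-0.44) or without the filter on dim probes. Hgfac, Hpn and Klkb1 lost their calls in 9, 10 and 7 other settings, among them those without Rbpj-/-_N3, Rbpj-/-_N5, Rbpj+/+_1024 or Rbpj+/+_991 and, for Hpn and Klkb1, Rbpj+/+_1155.

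Of 4 MET relatives and partners 1 passed. Cd44, a surface glycoprotein of which some forms act as MET co-receptor, was higher by 0.85 (SE 0.20, limma adjusted p = 0.0169), with 0.87 to 1.25 in Rbpj+/+ and 1.69 to 2.12 in Rbpj-/- liver. Mst1 and Mst1r, a ligand and receptor pair related to HGF and MET, gave -0.43 and 0.57 and did not pass.

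Of 13 brakes on the receptors and on ERK, 11 were tested, 3 were higher, 2 lower and 6 did not pass. Lrig3, of a family of leucine-rich membrane proteins that restrain receptor kinases, fell by 0.999 (SE 0.18, limma adjusted p = 0.0066), with 2.54 to 2.83 in Rbpj+/+ and 1.54 to 1.81 in Rbpj-/- liver. Cbl, a ubiquitin ligase that sends active EGFR and MET to degradation, was higher by 1.51 (SE 0.28, limma adjusted p = 0.0073). It was well above background in 1 of 4 Rbpj+/+ and 3 of 3 Rbpj-/- animals, so its call lends no support to a rise. Its difference was 0.15 after normexp correction (limma adjusted p = 0.386). Spred2, an inhibitor of Ras-ERK signalling, was lower by a difference of -0.65 (limma adjusted p = 0.0845), with overlapping groups and a call that was lost in 12 other settings. Its call did not hold without Rbpj+/+_1024 or Rbpj+/+_991, nor without any 1 of the 3 Rbpj-/- animals. Errfi1 and Dusp6, feedback inhibitors of EGFR and of ERK, gave 0.34 and 0.03 and did not pass.

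Of 21 adaptors and kinases of the Ras-ERK relay, 20 were tested, 4 were higher, 2 lower and 14 did not pass, and the median difference was 0.02. Mapk3, which encodes ERK1, was higher by 1.07 (SE 0.21, limma adjusted p = 0.0096), with 1.75 to 2.43 in Rbpj+/+ and 3.20 to 3.32 in Rbpj-/- liver. Gab1, the docking protein of MET and EGFR, was higher by 0.98 (SE 0.20, limma adjusted p = 0.0112), and Map2k1, which encodes the kinase MEK1, by 0.9996 (SE 0.26, limma adjusted p = 0.0268). Gab1 lost its call after normexp correction (0.21, limma adjusted p = 0.221), after quantile normalization (1.17, limma adjusted p = 0.124), in the series matrix (1.17, limma adjusted p = 0.126) and without the filter on dim probes (limma adjusted p = 0.107).

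Of 12 genes that respond to ERK, 9 were tested, 5 were higher, 1 lower and 3 did not pass. Fos, an early transcription factor with 10 spots per array, was well above background on 0 of 4 Rbpj+/+ and on all 3 Rbpj-/- arrays (-4.41 and -0.76 on average) and was at least 6.01-fold higher (limma adjusted p = 0.0012). It entered the test through Rbpj-/- liver only, so its call lends no support to a rise. After normexp correction its fitted difference was 0.71, smaller than this bound (limma adjusted p = 0.0345). Ier3, an early gene linked to cell survival, was higher by 3.23 (SE 0.69, limma adjusted p = 0.0127), with 1.35, 1.72 and -1.32 in Rbpj-/-_N3, _N5 and _2866 and -3.51 to -1.90 in Rbpj+/+ liver. The smallest Ier3 difference in the other settings was 1.53. Junb was higher by 1.71 (SE 0.43, limma adjusted p = 0.0239), with -0.32, -0.45 and -2.09 against -3.15 to -2.18. The difference was 0.50 after normexp correction, and the call was lost without the filter on dim probes (limma adjusted p = 0.159) and without the 2 arrays with brighter dim probes (1.46, limma adjusted p = 0.107). Neither Ier3 nor Junb was well above background on all 7 arrays, so that each entered the test through 1 genotype only. Their calls lend no support to a rise. Rbpj-/-_2866 was the lowest of its genotype in Hbegf, Nrg1 and Nrg4, and also in Hgf and at the far 3′ probe of Egfr. In Met it was the highest. It was lowest in Ier3, Junb and Areg too, whose dim values have no reliable order. Phlda1, also induced by ERK in many cells, was lower by a difference of -1.02 (limma adjusted p = 0.0757), a call that was lost in 12 other settings. Etv4, Etv5 and Egr1 did not pass. These genes respond to other signals too, and phosphorylated receptors or ERK were not measured here.

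**Figure D4:**
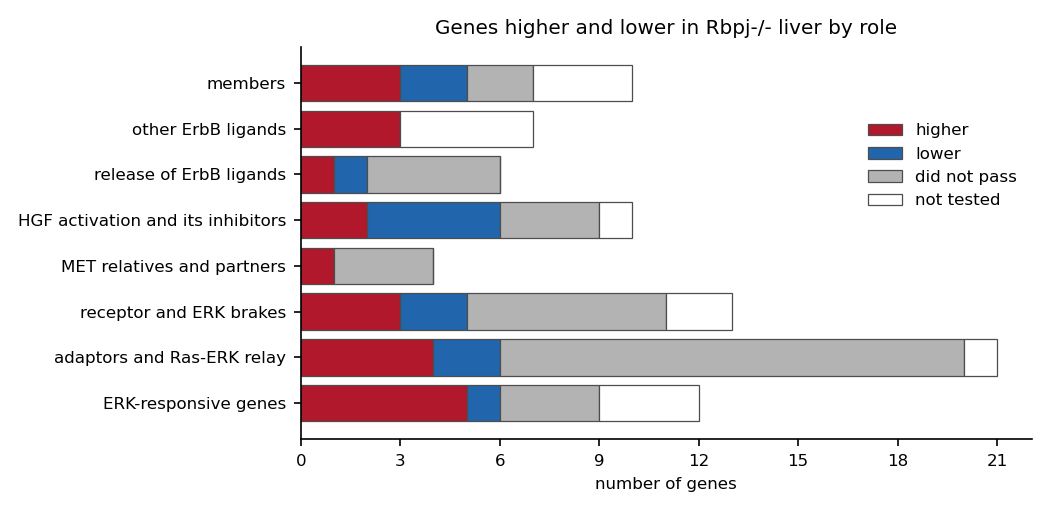
Number of genes (horizontal axis) that were higher, lower, did not pass or were not tested in Rbpj-/- against Rbpj+/+ liver, for the 10 members and each of the 7 lists by role. The other ErbB ligands hold 3 higher and 4 untested genes, and the HGF activation list holds the most lower genes, 4 of 9 tested.

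How far each member's difference moved with the processing and with single animals is shown for the 7 tested genes. Egfr and Met were called under each of the 19 other settings, Hgf was not called under 3 of them, Hbegf was not under 3, and Tgfa was not under 11 of the 18 in which it was tested.

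**Figure D5:**
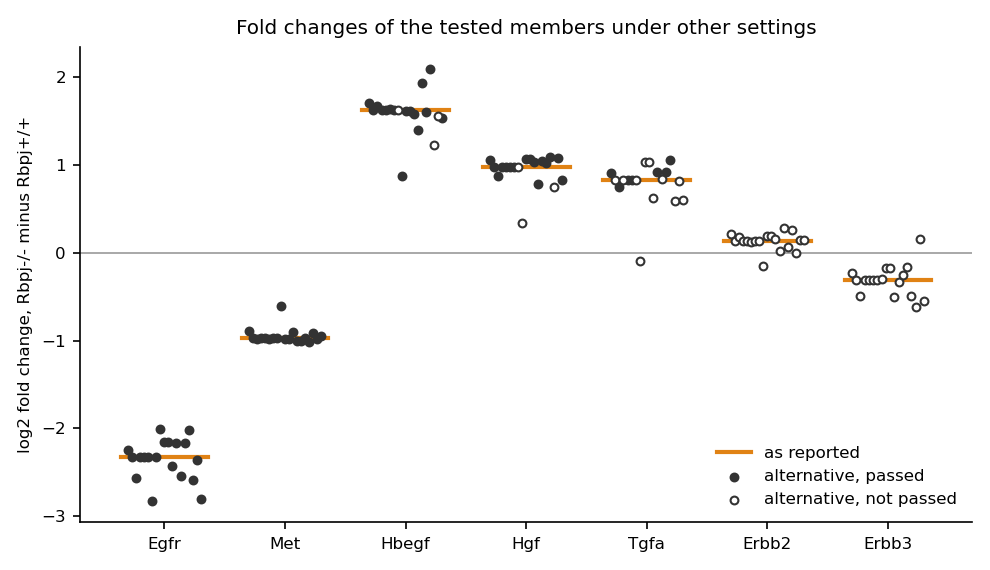
Log2 fold change of each tested member (vertical axis) as reported (orange line) and in the other settings (points, filled where the gene passed). The points of Egfr and Met are all filled and lie below 0, those of Hbegf, Hgf and Tgfa include open points, and those of Erbb2 and Erbb3 are all open and lie on both sides of 0.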

How the data were processed

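Per the labels and file headers, the authors hybridised RNA of 7 livers (4 Rbpj+/+, 3 Rbpj-/-) to 1-colour Agilent arrays and read them with Feature Extraction 10.7.3.1. The deposited intensity is the background-subtracted signal of each spot, without normalization between arrays. The authors' log2 values of the series matrix served as an alternative.

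Controls were dropped, as were spots with the scanner's non-uniformity or population outlier marks (146 probe values), and no gene spot was saturated. Log2 intensities were averaged over a probe's spots, then reduced by their array's 75th percentile. Testing required a signal well above background in every animal of 1 genotype or both (24547 of 55681 probes) and used limma 3.58.1 in R 4.3.3. A gene stands for its brightest tested probe. The number of arrays limits the precision. Nothing says that these animals were littermates or processed apart. Probe positions are those of the array design (mm9).

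The members and the lists were chosen with earlier results of these data known. The text names all members and, per role list, up to 3 called genes of smallest adjusted p. The results for 2 listed genes are counted in the lists but not reported here. Other listed genes are given as counts or after their values were seen. Of the steps, only the limma fit was tested on simulated data. Alternatives were normexp correction, quantile normalization, another percentile, other filters and thresholds, limma-trend, array weights, the series matrix, the mean of a gene's probes, single animals left out and, added after seeing the data, 2 arrays left out, the hepatocyte markers without Cps1 and the ratio of Egfr probes. Tables and figures used Python 3.11.15, pandas 2.3.3 and matplotlib 3.10.9.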

Additional observations from a re-analysis of the deposited data

Results flagged for a closer look

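In 31 groups of 4 animals the lowest or highest value was compared with the range of its group, and 2 stood apart, where chance would set apart about 1 in 20. Hgf in Rbpj+/+_1155 was -1.94, against -1.21 to -1.14 in the other Rbpj+/+ animals. Plg in Rbpj+/+_1156 was 7.8, against 8.25 to 8.32.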

How the results depend on the processing

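Without the filter on dim probes 1648 genes were called in place of 6412, with 0 members higher and, among the genes of the role lists, 7 higher and 1 lower, and Rbpj gave -1.13 (limma adjusted p = 0.107). Normexp correction left 1 member higher and turned Tgfa to -0.0915 and Erbb2 to -0.15. The lower genes of the role lists numbered 5 after quantile normalization, 4 in the series matrix and 3 at an adjusted p below 0.05. Without the 2 arrays with brighter dim probes, 12 of these genes were higher and 5 lower. With 1 animal left out, 3721 to 7108 genes were called (3721 without Rbpj-/-_N5 and 4272 without Rbpj+/+_1024), 0 to 4 members were higher (4 where the loss of Rbpj-/-_2866, its lowest animal, let Areg pass the filter) and 1 to 11 genes of the role lists lower, Erbb2 lay between -0.0066 and 0.28 and Erbb3 between -0.61 and 0.16. Over the single members and named genes under each alternative, Rbpj and the counts left aside, 449 values kept their direction and side of the threshold, 49 lost the call and 4 changed sign, and the cause was not tested. The slide as a block was not run because all arrays share 1 slide. No paired analysis was possible because the genotypes share no animal numbers. Signal over background limits Areg, Egf, Erbb3, Erbb4, Tgfa, Btc, Cbl, Fos, Plaur, Ier3 and Junb, for which dim values have no reliable order.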

Other observations

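Genes whose log2 level ran most like a member were taken from 18742 tested genes by Pearson correlation over the 7 animals, which share the genotype difference, so that the values are a description. Egfr was followed most closely by a lincRNA probe on chromosome 11 (r = 0.993), Plod1 (0.987) and Lepr (0.986). Hgf was followed by Gm9733 (0.991), Anxa13 (0.990) and Eng (0.988), an endothelial co-receptor. Met was followed by another lincRNA probe on chromosome 11 (0.998), Aqp4 (0.997), a water channel, and Vprbp (0.997). Proliferation markers, which include Mki67, Top2a and Ccnb1, were higher in 8 of 8 genes with a median difference of 2.70. Of the other cell type markers, 2 of 5 tested cholangiocyte genes were higher and none lower, 3 of 7 endothelial genes were higher and 1 lower, 3 of 5 neutrophil genes were higher and 1 lower, and 5 of 6 tested lymphocyte genes were lower and none higher.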
